A study of Mus musculus with 6 samples.

Results

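The genes of ceramide and sphingomyelin synthesis were examined in gonadal white adipose tissue (gWAT), a visceral depot attached to the reproductive organs. The set holds 10 genes, chosen by symbol through their NCBI gene identifiers: *Sptlc1*, *Sptlc2*, *Cers2*, *Cers4*, *Cers5*, *Cers6*, *Degs1*, *Sgms1*, *Sgms2* and *Sphk1*. All 10 were found among the 19790 genes of the read-count table. The tissue came from male wild-type C57BL/6 mice. A normal chow diet (NCD) was given to 3 of them and a high-fat diet (HFD) to the other 3, each for 8 weeks. Values of single mice are listed in the order of replicates 1, 2 and 3. The sample labels place the start of the diets at 6 weeks of age, and the methods of the study give 8 weeks for HFD. Every library is from whole tissue of wild-type mice, so adipocytes, macrophages, vessels and stromal cells were sequenced together. Transcripts were counted, and no sphingolipid was measured in these libraries.

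Sphingolipids are built on a long-chain base instead of glycerol. Serine palmitoyltransferase joins serine to palmitoyl-CoA in the endoplasmic reticulum, ceramide synthases add an acyl chain whose length depends on the isoform, and dihydroceramide desaturase introduces the double bond that turns dihydroceramide into ceramide. Sphingomyelin synthases then move phosphocholine from phosphatidylcholine to ceramide, while ceramidases and sphingosine kinases lead from ceramide to sphingosine 1-phosphate. In adipose tissue ceramides are known for opposing insulin signalling, and they have been studied widely in diet-induced obesity.

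Libraries held between 49575113 and 66360046 counts, with no normalization. Secretory genes of the seminal vesicle, 11 in number, took 58.6% of the counts of NCD replicate 1. This gland lies next to the gonadal fat. The share was 11.2% in NCD replicate 2 and 2.30% in NCD replicate 3, and at most 1.21e-05% in an HFD library. NCD replicate 1 thus stood apart from the other mice, and the comparisons of the diets are given with and without it. Without it all 11 secretory genes were still lower on HFD by edgeR, so diet and seminal vesicle RNA still differed together there. Levels are given as CPM, the counts relative to the library total, after scaling by edgeR's TMM method (TMM-scaled CPM). The method gave that library a factor of 0.496 against 1.02 to 1.27 in the other 5. The 8 adipocyte markers, such as *Adipoq* and *Fabp4*, were detected in all 6 libraries, and their summed TMM-scaled CPM was 4005 for NCD replicate 1 and 11814 to 21911 for the other mice.

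With all 6 mice, no difference between the diets was detected in any gene of the set. On data simulated for 3 mice against 3, with 200 genes changed, edgeR recovered 7.29% of 2-fold and 68.8% of 4-fold changes. Changes of 2-fold or less, and some of up to 4-fold, could thus go undetected. The simulation changed few genes and gave all mice a common spread, so its rates may differ from those on the real data. By edgeR's quasi-likelihood test, 0 of the 10 genes passed a Benjamini-Hochberg adjusted p under 0.05 over all genes, where 7.47% of the 15241 genes tested passed and 5.58% passed as higher on HFD. None of the 10 had an unadjusted p under 0.05 in edgeR or limma-voom, against 29.7 and 26.5% of all genes. In DESeq2 1 of the 10 had, against 5639 genes where 16776 had an adjusted p. None of the 10 passed the adjusted threshold in limma-voom or DESeq2, where DESeq2 called 23.0% and limma-voom 6.39% of all genes. The values of the diets overlapped in all 10 genes, whereas they did not overlap in 39.2% of all genes tested. The median log2 fold change (HFD minus NCD) was 0.11 over the 10 genes and -0.08 over all genes. Without NCD replicate 1, *Sptlc2* and *Cers6* were higher on HFD, which is 2 of 10 genes where 20.9% of all genes passed in either direction and 10.7% as higher. In that comparison the diets did not overlap in 5 of the 10 genes, against 57.5% of all genes, and the median log2 fold change was -0.03 over the 10 genes and 0.02 over all genes. In either direction, the share past the threshold and the share without overlap thus lay close to or below those of all genes. In bulk tissue, fewer cells of a type and less RNA per cell cannot be told apart.

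**Figure D1:**
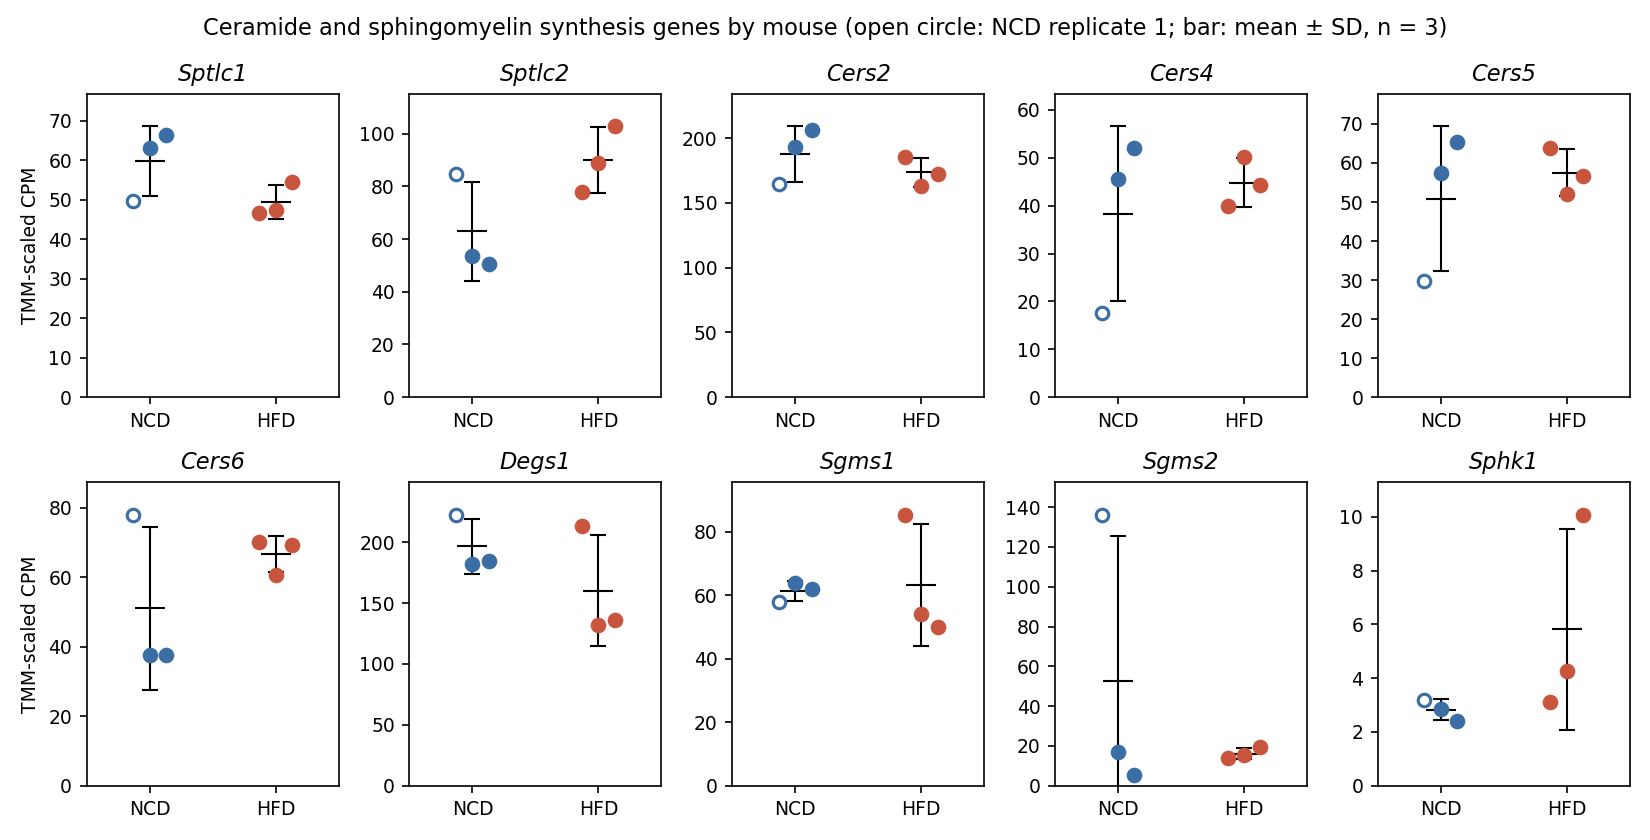
TMM-scaled CPM (y axes) of each of the 10 genes in the 3 NCD-fed and 3 HFD-fed mice. Points are mice, the open circle is NCD replicate 1, and bars give the mean ± SD (n = 3), with the lower arm of *Sgms2* on NCD ending at 0. *Sptlc2*, *Cers6* and *Sgms2* show NCD replicate 1 above the other NCD-fed mice, and *Cers4* and *Cers5* show it below them.

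Serine palmitoyltransferase, the first and rate-limiting enzyme of the pathway, is formed by the products of *Sptlc1* and *Sptlc2*. *Sptlc2* (NCBI gene 20773, chr12:87305058-87388355 of GRCm38), which encodes the catalytic subunit, measured 84.6, 53.6 and 50.4 TMM-scaled CPM on NCD and 77.8, 89.0 and 103 on HFD. NCD replicate 1 lay among the HFD-fed mice, and both other NCD-fed mice lay below all of them. Means were 62.9 ± 18.9 on NCD and 89.9 ± 12.6 on HFD (SD, n = 3 mice each), with a log2 fold change of 0.52 (standard error 0.25, 95% interval -0.08 to 1.11, adjusted p = 0.218 from edgeR). Once NCD replicate 1 was left out, *Sptlc2* rose by 0.80 on the log2 scale, or 1.75-fold (standard error 0.16, 95% interval 0.42 to 1.19, adjusted p = 0.0224 from edgeR).

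The sequence in front of *Sptlc2* is shown because *Sptlc2* was higher on HFD without NCD replicate 1 while its partner subunit was not. It comes from RefSeq (GRCm38.p6) and covers the 250 bases before the start of the gene, chr12:87388356-87388605 on the minus strand. Capitals mark matches to 5 motifs searched on both strands, which were the GC box GGGCGG, the CCAAT box CCAAT, the TATA box TATAAA, the E-box CACGTG and an ETS motif GGAAGT.
*Sptlc2*: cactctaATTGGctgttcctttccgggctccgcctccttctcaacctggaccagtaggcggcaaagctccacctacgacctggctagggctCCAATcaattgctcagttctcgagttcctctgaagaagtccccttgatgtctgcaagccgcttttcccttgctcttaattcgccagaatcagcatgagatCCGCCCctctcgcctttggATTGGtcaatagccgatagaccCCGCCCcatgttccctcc
The window held 2 GC boxes and 3 CCAAT boxes, had a GC content of 55.2%, and held none of the other 3 motifs. Over the 32851 windows of this length in the RefSeq set, 32.7% held a GC box, 33.8% a CCAAT box, 12.4% a TATA box, 6.02% an E-box and 19.7% the ETS motif, and the median GC content was 52.4%. The *Cers6* window of this length overlaps the span of the gene in RefSeq, unlike that of *Sptlc2*, and is not printed. It held 1 CCAAT box and 1 E-box, at a GC content of 70.4%. All 10 genes matched the set with 23 windows, several genes having more than 1 start and windows that can overlap. Of these 23 windows, 9 (39.1%) held a GC box, 9 (39.1%) a CCAAT box, 1 (4.35%) a TATA box, 6 (26.1%) an E-box and 2 (8.70%) the ETS motif. A match describes the letters of a window, and no binding was measured.

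*Sptlc1* (NCBI gene 268656, chr13:53332748-53377417), the other subunit of the enzyme, measured 49.8, 63.2 and 66.5 TMM-scaled CPM on NCD and 46.6, 47.4 and 54.4 on HFD. The 2 highest values were from NCD-fed mice and the 2 lowest from HFD-fed mice, with NCD replicate 1 in between. The log2 fold change was -0.28 (standard error 0.16, 95% interval -0.67 to 0.12, adjusted p = 0.303 from edgeR). Leaving out NCD replicate 1 gave -0.38 (95% interval -0.68 to -0.08, adjusted p = 0.0791 from edgeR), and DESeq2 without that mouse gave an adjusted p of 0.0337, in a fit that called 29.8% of all genes, 15.8% as higher. With total counts alone as the scaling the sign turned, to 0.18. That scaling shifted the median over all genes from -0.08 to 0.45.

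The ratio of the subunits compares genes within a library and does not depend on the scaling. *Sptlc2* had 1.70, 0.848 and 0.759 counts for each *Sptlc1* count in NCD replicates 1, 2 and 3 and 1.67, 1.88 and 1.89 in HFD replicates 1, 2 and 3. NCD replicate 1 lay just above the lowest HFD-fed mouse, and the other NCD-fed mice lay below every HFD-fed mouse. The log2 ratio was higher on HFD by 0.81 (exact permutation test, two-sided p = 0.2, 0.4 after adjustment over the 6 ratios examined). The difference was 1.17 without NCD replicate 1, with no overlap, in a comparison of 2 mice against 3. With 3 mice against 3 the smallest two-sided p of this test is 0.1.

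Ceramide synthases attach the fatty acid. The isoform made by *Cers2* favours very long chains, those of *Cers5* and *Cers6* favour palmitate, and that of *Cers4* favours chains of intermediate length. *Cers6* (NCBI gene 241447, chr2:68861145-69114284), whose C16 ceramide product has been tied to impaired lipid oxidation in obese mice, measured 78.0, 37.4 and 37.6 TMM-scaled CPM on NCD and 70.0, 60.7 and 69.2 on HFD. NCD replicate 1 was the highest of all mice and the other NCD-fed mice were the lowest, so the diets overlapped through that library alone. Means were 51.0 ± 23.4 on NCD and 66.6 ± 5.15 on HFD (SD, n = 3 mice each), with a log2 fold change of 0.39 (standard error 0.32, 95% interval -0.39 to 1.16, adjusted p = 0.446 from edgeR). When NCD replicate 1 was left out, *Cers6* rose by 0.84 on the log2 scale, or 1.79-fold (standard error 0.12, 95% interval 0.55 to 1.13, adjusted p = 0.0102 from edgeR).

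*Cers2* (NCBI gene 76893, chr3:95314771-95323599) measured 164, 193 and 206 TMM-scaled CPM on NCD and 185, 163 and 172 on HFD. The ranges of both diets overlapped, and the log2 fold change was -0.11 (standard error 0.16, 95% interval -0.52 to 0.29, adjusted p = 0.668 from edgeR). Leaving out NCD replicate 1 gave -0.19 (95% interval -0.50 to 0.12, adjusted p = 0.324 from edgeR), with all HFD-fed mice below both NCD-fed mice. Scaling by total counts alone turned the sign with all 6 mice, to 0.35.

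*Cers5* (NCBI gene 71949, chr15:99735592-99772515) measured 29.9, 57.3 and 65.4 TMM-scaled CPM on NCD and 63.9, 52.1 and 56.7 on HFD. *Cers4* (NCBI gene 67260, chr8:4492818-4529603) was at 17.6, 45.5 and 52.0 in the NCD-fed and at 39.9, 50.1 and 44.3 in the HFD-fed mice. In both genes NCD replicate 1 was the lowest of all mice, and the other NCD-fed mice lay within or next to the range of the HFD-fed mice. The log2 fold changes were 0.18 for *Cers5* (95% interval -0.55 to 0.91, adjusted p = 0.717 from edgeR) and 0.22 for *Cers4* (95% interval -0.74 to 1.18, adjusted p = 0.731 from edgeR). Without NCD replicate 1 they were -0.08 (95% interval -0.41 to 0.25) and -0.11 (95% interval -0.46 to 0.24), on the other side of 0.

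Divided by the length of the union of a gene's annotated exons, so that genes can be compared, *Cers2* made up most of the ceramide synthase level in every mouse. Its share of the summed level of the 6 family members was 73.7, 74.4 and 73.6% in NCD replicates 1, 2 and 3 and 69.8, 69.8 and 69.6% in HFD replicates 1, 2 and 3. All HFD values were below all NCD values, NCD replicate 1 included, at a mean of 73.9 ± 0.41% (SD, n = 3) on NCD and 69.8 ± 0.14% (SD, n = 3) on HFD. This share was singled out after its values had been seen and was not tested. The other isoforms were less uniform, *Cers6* taking 10.97, 4.53 and 4.21% on NCD and 8.29, 8.16 and 8.76% on HFD, and *Cers5* taking 10.2, 16.8 and 17.7% on NCD and 18.3, 17.0 and 17.4% on HFD. In NCD replicate 1 a further 3.32% was *Cers3*, an isoform of skin and testis, which took at most 0.193% in any other mouse. *Cers1*, the isoform of brain and muscle, had no count in any library.

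Within a library, *Cers6* had 0.474, 0.194 and 0.182 counts for each *Cers2* count on NCD and 0.378, 0.373 and 0.401 on HFD. The HFD-fed mice were close together, and NCD replicate 1 lay above them and the other NCD-fed mice below them. The log2 ratio differed by 0.58 (exact permutation test, two-sided p = 0.4, adjusted 0.48), and by 1.03 without NCD replicate 1. The ratio of *Cers5* to *Cers2* did not overlap, at 0.182, 0.297 and 0.317 on NCD and 0.345, 0.320 and 0.329 on HFD. Its log2 difference of 0.36 had the smallest p that the exact permutation test allows, 0.1, adjusted to 0.4, and shrank to 0.11 without NCD replicate 1. The log2 ratio of *Cers4* to *Cers2* differed by 0.47 (exact permutation test, two-sided p = 0.4, adjusted 0.48) and by 0.08 without NCD replicate 1.

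**Figure D2:**
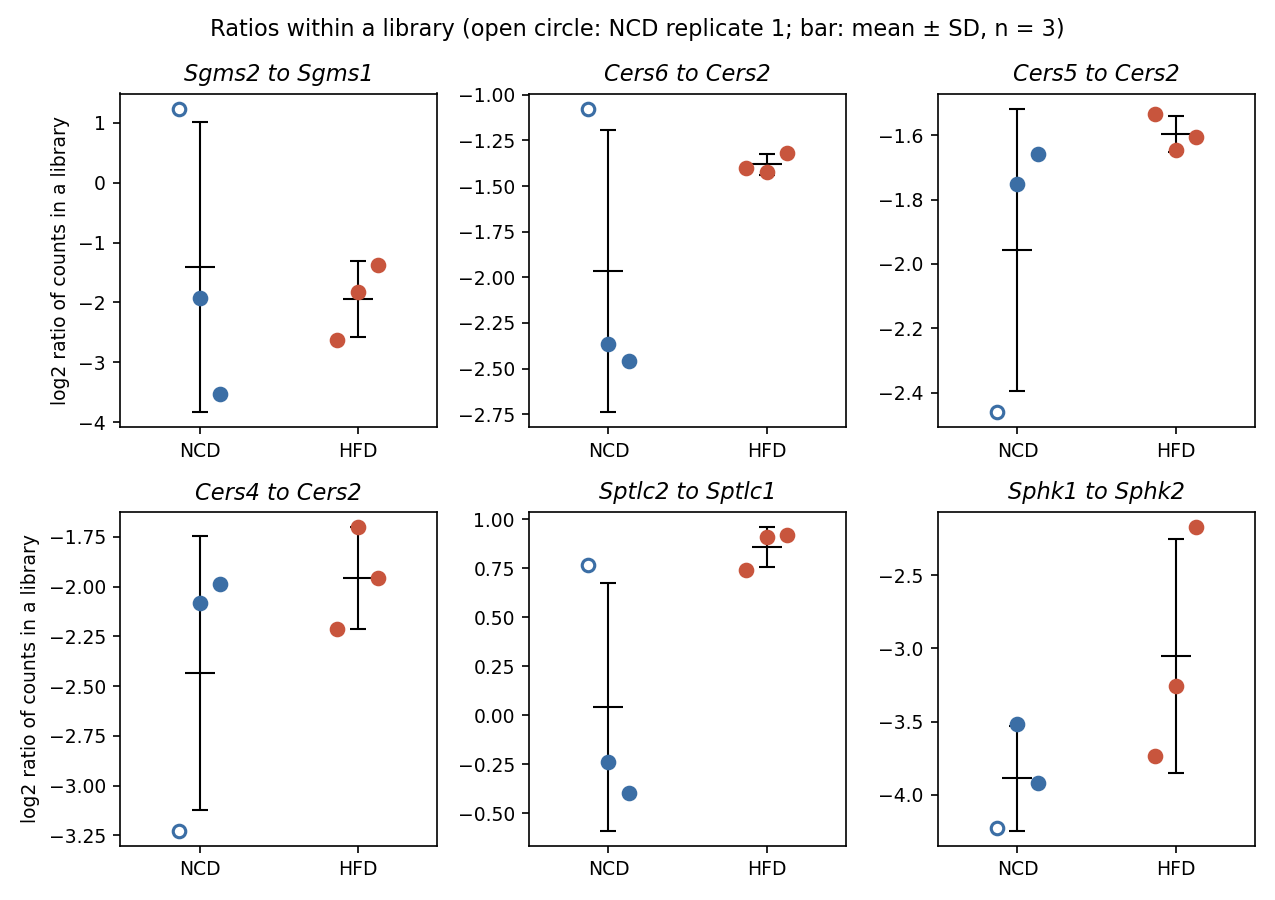
Log2 ratios of counts within a library (y axes) for 6 pairs of genes in the NCD-fed and HFD-fed mice. Points are mice, the open circle is NCD replicate 1, and bars give the mean ± SD (n = 3). For *Cers6* to *Cers2* and *Sptlc2* to *Sptlc1* the HFD-fed mice lie above NCD replicates 2 and 3. NCD replicate 1 lies above all HFD-fed mice for *Cers6* to *Cers2*, and just above the lowest of them for *Sptlc2* to *Sptlc1*.

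Dihydroceramide desaturase completes de novo synthesis, and *Degs1* (NCBI gene 13244, chr1:182275964-182282854) encodes its main form. It measured 223, 183 and 185 TMM-scaled CPM on NCD and 213, 132 and 136 on HFD. HFD replicate 1 lay with the NCD-fed mice and the other HFD-fed mice lay below. The log2 fold change was -0.29 (standard error 0.24, 95% interval -0.88 to 0.30, adjusted p = 0.447 from edgeR) and -0.18 without NCD replicate 1 (adjusted p = 0.613 from edgeR). Total counts alone gave 0.24. Per kilobase of exon *Degs1* and *Cers2* were the highest of the 10 genes in every mouse, at mean levels of 96.0 and 84.8 TMM-scaled CPM per kilobase on NCD and 78.3 each on HFD. The order of these neighbours changed between mice, *Degs1* being first in 3 of 6.

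The sphingomyelin synthases differ in place, the product of *Sgms1* acting in the Golgi and that of *Sgms2* also at the plasma membrane. *Sgms1* (NCBI gene 208449, chr19:32122727-32389885) measured 57.9, 64.0 and 62.0 TMM-scaled CPM on NCD and 85.5, 54.2 and 50.1 on HFD. The NCD-fed mice lay between the highest and the other HFD-fed mice. The log2 fold change was 0.05 (standard error 0.23, 95% interval -0.52 to 0.61, adjusted p = 0.911 from edgeR), and it was 0.02 without NCD replicate 1 and -0.22 without HFD replicate 1.

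*Sgms2* (NCBI gene 74442, chr3:131318985-131491443) was the most uneven gene of the set. It measured 136, 16.8 and 5.38 TMM-scaled CPM on NCD and 13.9, 15.3 and 19.4 on HFD. The NCD-fed mice held both the highest and the lowest value, in the order of their seminal vesicle share of 58.6, 11.2 and 2.30%. The part of that tissue in the *Sgms2* level was not tested. The log2 fold change was -1.71 (standard error 1.10, 95% interval -4.38 to 0.96, adjusted p = 0.338 from edgeR). On the same mice it was -0.35 by limma-voom and -0.60 with total counts alone. It turned to 0.56 without NCD replicate 1 (standard error 0.48, 95% interval -0.62 to 1.74, adjusted p = 0.436 from edgeR). Per length, *Sgms2* made up 65.1% of the level of the *Sgms1* and *Sgms2* pair in NCD replicate 1, 17.3 and 6.43% in the other NCD-fed mice, and 11.4, 18.2 and 23.5% in the HFD-fed mice. The log2 ratio of *Sgms2* to *Sgms1* counts differed by -0.54 with all mice (exact permutation test, two-sided p = 0.9, adjusted 0.9) and by 0.78 without NCD replicate 1.

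*Sphk1* (NCBI gene 20698, chr11:116530836-116536675) encodes a sphingosine kinase that makes sphingosine 1-phosphate. It had 105, 170 and 130 counts in NCD replicates 1, 2 and 3 and 179, 357 and 633 in HFD replicates 1, 2 and 3, which is 3.20, 2.84 and 2.42 against 3.10, 4.28 and 10.1 TMM-scaled CPM. HFD replicate 3 stood far above the others, and HFD replicate 1 lay below NCD replicate 1. The log2 fold change of 1.05 did not pass (standard error 0.48, 95% interval -0.12 to 2.22, adjusted p = 0.206 from edgeR), nor did that of 1.16 without NCD replicate 1 (adjusted p = 0.185 from edgeR). Without HFD replicate 3 it was 0.40. *Sphk1* was the lowest of the 10 genes per length in every mouse, at 0.726 TMM-scaled CPM per kilobase on NCD and 1.499 on HFD. It was the minor kinase next to *Sphk2*, with 5.38 to 8.54% of their summed level per length on NCD and 7.44 to 19.2% on HFD. The log2 ratio of *Sphk1* to *Sphk2* differed by 0.83 (exact permutation test, two-sided p = 0.2, adjusted 0.4) and by 0.66 without NCD replicate 1.

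**Figure D3:**
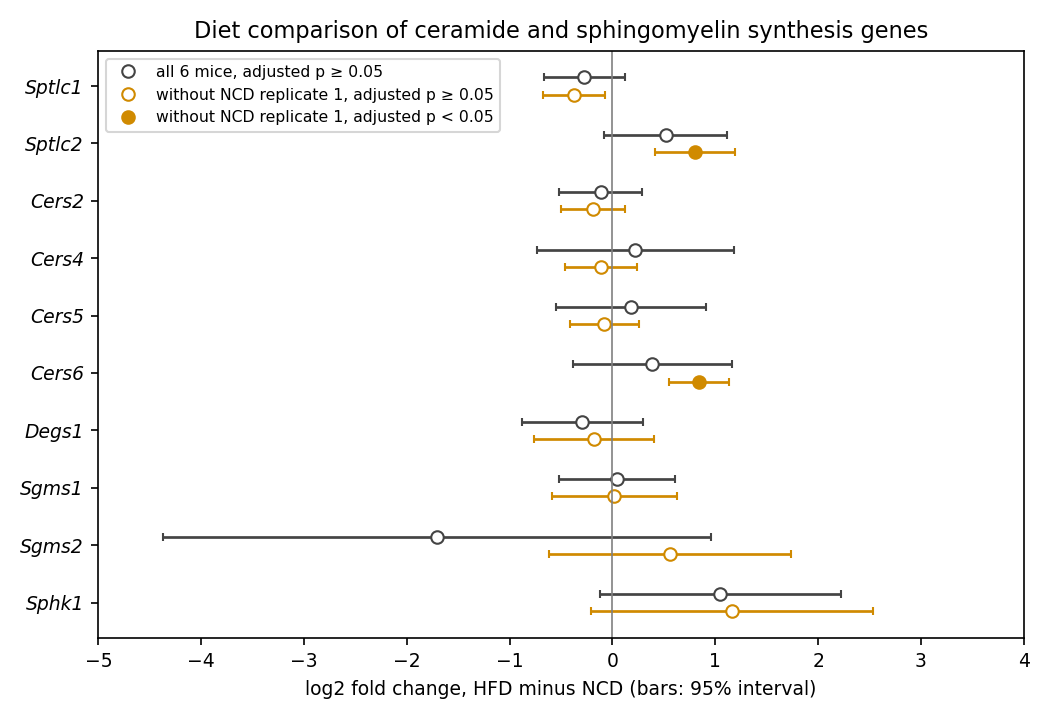
Log2 fold change, HFD minus NCD (x axis), of the 10 genes from edgeR with all 6 mice and without NCD replicate 1. Bars are 95% intervals, which without that mouse lie above 0 for *Sptlc2* and *Cers6* and below 0 for *Sptlc1*, the last without passing the adjusted threshold.

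Between the extremes, the order of the levels per length depended on the mouse. *Sptlc1*, *Cers5*, *Sgms1* and *Sptlc2* took ranks 3 to 8, with NCD means of 23.0, 17.5, 13.3 and 9.37 and HFD means of 19.0, 19.8, 13.8 and 13.4 TMM-scaled CPM per kilobase. *Cers6* and *Cers4* followed, at 7.22 and 4.05 on NCD and 9.43 and 4.73 on HFD. This order depends on the exon lengths used, which were 7062 bases for *Cers6* and 9475 for *Cers4*. Before division by length, *Cers4* was above *Cers6* in NCD replicates 2 and 3 and below it in the other mice. *Sgms2* was the third highest in NCD replicate 1 and ranked 9 in each of the other 5 mice.

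The genes around these steps were described through a list of 45 other sphingolipid genes, of which 40 had enough counts to be tested. With all 6 mice 6 of the 40 were higher and 0 lower on HFD by edgeR at the adjusted threshold, where 7.47% of all genes passed and 5.58% were higher. An unadjusted p under 0.05 was found for 18 of the 40, against 29.7% of all genes. The diets did not overlap in 22 of the 40, against 39.2% of all genes, and the median log2 fold change was 0.22, against -0.08. DESeq2, which gave an adjusted p for 39 of them, called 12 higher and 3 lower, where it called 23.0% of all genes in either direction and 12.5% as higher. Its lower genes were *Kdsr*, *Degs2* and *Cert1*. Limma-voom called 6 higher and 0 lower, against 6.39% of all genes in either direction and 4.88% as higher. Without NCD replicate 1 edgeR called 9 higher and 1 lower, where 20.9% of all genes passed and 10.7% were higher, with a median of 0.31, against 0.02. Leaving out 1 of the other 5 mice instead, 0 of the 40 and 0 of the 10 passed in edgeR. Those fits called 2 to 7 of all genes, or 0.0127 to 0.0450%, so these counts say nothing particular to the listed genes.

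In the group of complex sphingolipid synthesis and transport 3 of 9 tested genes rose, where 5.58% of all genes were higher. *Cerk*, the kinase that makes ceramide 1-phosphate, was at 12.4, 25.7 and 26.8 TMM-scaled CPM in the NCD-fed and at 144, 94.9 and 130 in the HFD-fed mice, without overlap between the diets (log2 fold change 2.50 ± 0.35, edgeR standard error, adjusted p = 0.0223). The lactosylceramide synthases *B4galt5* and *B4galt6* were at 19.1 to 22.1 and 11.5 to 25.8 on NCD and at 70.6 to 108 and 64.2 to 85.5 on HFD. Their log2 fold changes were 2.12 (standard error 0.20, adjusted p = 0.0192 from edgeR) and 1.82 (standard error 0.33, adjusted p = 0.0346 from edgeR). All 3 genes passed without NCD replicate 1, at 2.24, 2.09 and 1.55. With total counts alone *B4galt6* did not pass (adjusted p = 0.0566 from edgeR).

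In the group of sphingolipid hydrolysis 2 of 11 tested genes rose, against the same 5.58%. The lysosomal acid ceramidase gene *Asah1* was at 104, 110 and 105 TMM-scaled CPM on NCD and at 178 to 221 on HFD (log2 fold change 0.93 ± 0.16, edgeR standard error, adjusted p = 0.0287). *Acer3*, an alkaline ceramidase of the endoplasmic reticulum and Golgi, went from 11.5 to 13.7 on NCD up to 34.6 to 55.8 on HFD (log2 fold change 1.90 ± 0.23, edgeR standard error, adjusted p = 0.0212). In both genes all HFD values were above all NCD values, NCD replicate 1 included, and the log2 fold changes without that mouse were 0.93 and 1.84, past the threshold. With total counts alone *Asah1* did not pass (adjusted p = 0.0758 from edgeR).

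In the sphingosine 1-phosphate group 1 of 11 tested genes rose, the receptor gene *S1pr2*, from 6.58 to 11.4 TMM-scaled CPM on NCD to 28.5 to 40.3 on HFD (log2 fold change 1.95 ± 0.26, edgeR standard error, adjusted p = 0.0219). Its log2 fold change was 1.80 without NCD replicate 1, also past the threshold. A count of 1 in 11 is close to the share of all genes called higher. In the remaining de novo genes, such as the *Ormdl* regulators of serine palmitoyltransferase, 0 of 9 passed by edgeR or limma-voom, against 7.47 and 6.39% of all genes. DESeq2 called 2 of 8, against 23.0% of all genes. In edgeR 3 of 9 had an unadjusted p under 0.05, against 29.7% of all genes. The ganglioside GM3 synthase gene *St3gal5* (log2 fold change 1.13, adjusted p = 0.0183 from edgeR), the glycolipid carrier gene *Gltp* (1.35, adjusted p = 0.0225 from edgeR) and the saposin precursor gene *Psap* (1.44, adjusted p = 0.0484 from edgeR) passed as higher when NCD replicate 1 was left out but not with all 6 mice in this test. *Psap* did not pass there with median-of-ratios scaling (adjusted p = 0.0524 from edgeR). *Degs2*, a desaturase and hydroxylase of epithelia, passed as lower without that mouse (adjusted p = 0.0253 from edgeR, against 0.0804 with all mice). It was at 16.2, 1.54 and 0.465 TMM-scaled CPM on NCD, in the order of the seminal vesicle share, and had no count in any HFD library. Against a floor of 3 counts per library, HFD was at least 134-fold below the NCD mean, and at least 22.1-fold below it without NCD replicate 1. Both folds refer to means, and NCD replicate 3, at 0.465, lay below each of these means.

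**Figure D4:**
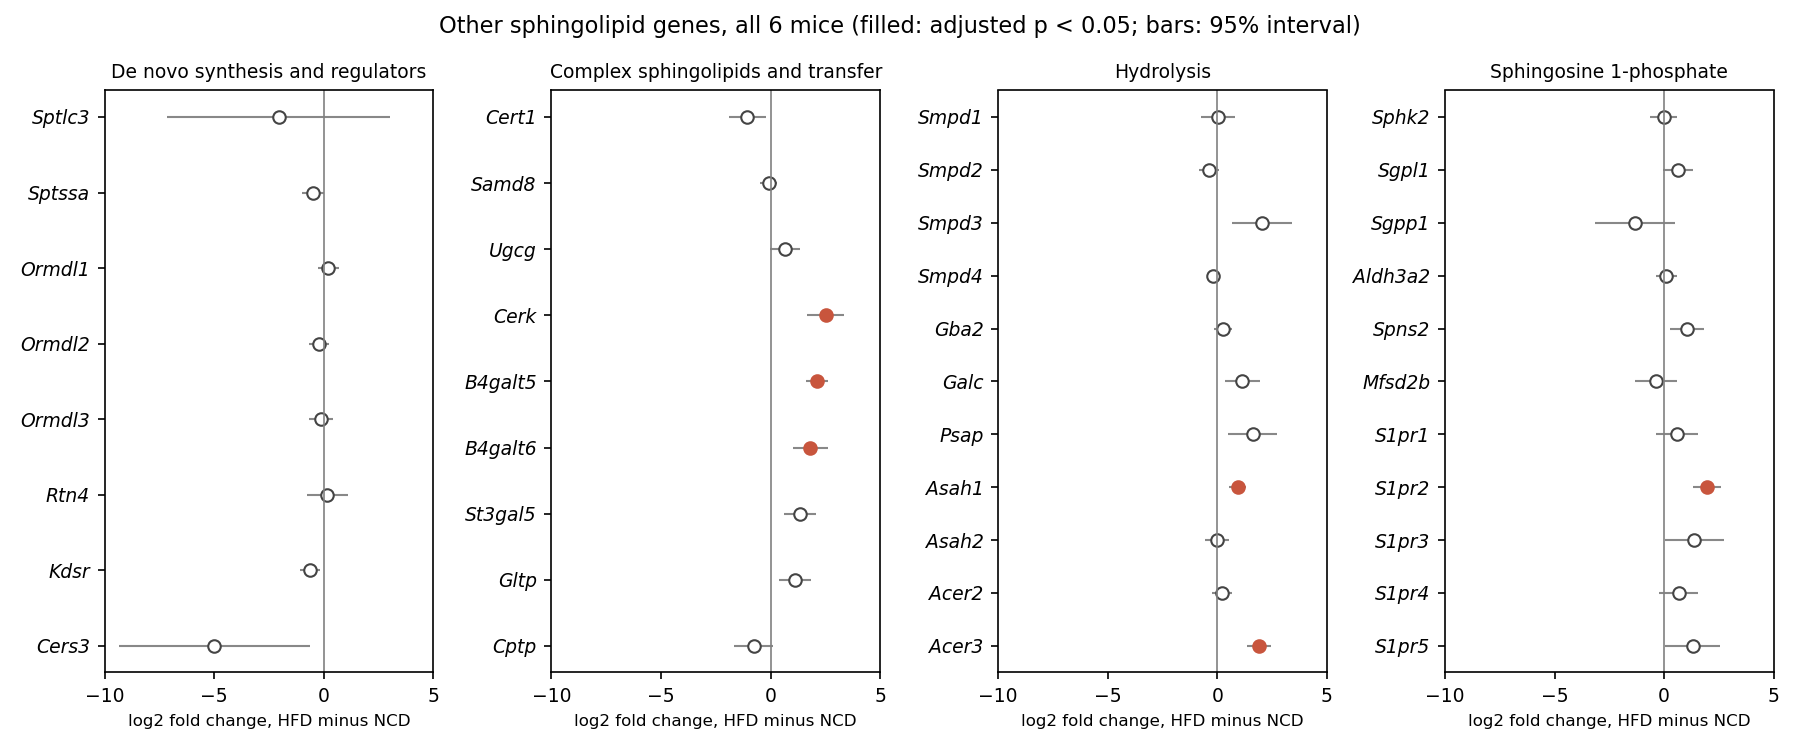
Log2 fold change, HFD minus NCD (x axes), of the other sphingolipid genes tested, by group, from edgeR with all 6 mice, with *Degs2* left out of the plot because it had no count on HFD. Bars are 95% intervals and filled points are the 6 genes past the adjusted threshold, all to the right of 0.

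The summed levels of several marker lists of cell types differed between the diets or in NCD replicate 1. The summed level of 8 macrophage markers was 349, 834 and 747 TMM-scaled CPM on NCD and 3358, 2010 and 2542 on HFD, and none of the 8 was at 0 in any library. By edgeR 3 of these 8 were higher with all mice and 8 of 8 without NCD replicate 1, where 5.58 and 10.7% of all genes were higher. The 8 adipocyte markers summed to 4005, 16076 and 21911 on NCD and to 12626, 15449 and 11814 on HFD. Of these 8, 0 passed in edgeR and limma-voom and 1 was lower in DESeq2, where 7.47, 6.39 and 23.0% of all genes passed. An unadjusted p under 0.05 in edgeR was found for 1 of 8, against 29.7% of all genes. Without NCD replicate 1, 4 of 8 were lower in edgeR, where 20.9% of all genes passed in either direction. The part of macrophage and adipocyte content in the changes of *Sptlc2*, *Cers6*, *Cerk*, the ceramidases and the other genes named here was not tested.

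The 10 epithelial markers summed to 1938, 206 and 51.6 TMM-scaled CPM on NCD and to between 35.7 and 145 on HFD, where 2 or 3 of them were at 0. By edgeR 1 of 10 was lower with all mice and 5 of 10 without NCD replicate 1, where 7.47 and 20.9% of all genes passed in either direction. By DESeq2 8 of 10 were lower with all mice, where 23.0% of all genes passed. Limma-voom called 0 of the 10, where 6.39% of all genes passed. An unadjusted p under 0.05 in limma-voom was found for 2 of the 10, against 26.5% of all genes. The 8 smooth muscle markers summed to 6747, 826 and 279 on NCD and to between 258 and 358 on HFD. None of the 8 passed in edgeR or limma-voom with all mice, where 7.47 and 6.39% of all genes passed. An unadjusted p under 0.05 in edgeR was found for 6 of 8, against 29.7% of all genes. DESeq2 called 6 of 8 lower, where 23.0% of all genes passed. Without NCD replicate 1 edgeR called 3 of 8 lower, where 20.9% passed. *Sgms2*, *Degs2* and *Cers3* were high in the same library as these lists, and their part in those levels was not tested. Of the 5 fibroblast and the 4 mesothelial markers 1 each was higher on HFD by edgeR with all mice, where 5.58% of all genes were higher. Their sums were 670 to 1384 and 77.1 to 109 on NCD and 1101 to 1625 and 136 to 426 on HFD. The 5 endothelial markers summed to 227, 671 and 792 on NCD and to between 805 and 989 on HFD. The T cell and B cell markers were low in both diets, at 5.08 to 12.2 for 4 T cell and 3.35 to 13.5 for 3 B cell genes.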

How the data were processed

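RNA of gWAT from 6 separate mice, 3 per diet, was sequenced from TruSeq mRNA libraries on an Illumina NovaSeq. The authors deposited raw read counts per gene, 1 column per mouse, without normalization, the column of HFD replicate 3 being numbered 4. The submitters' processing notes name bcl2fastq 2.20.0, Trimmomatic, HISAT2 2.1.0, StringTie 1.3.4d, DESeq2 and the builds mm10 and GRCm38. The roles of these tools, the annotation and the strand setting are not stated there or in the study's methods, so reads of overlapping or antisense genes may have been counted together.

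Of 19790 identifiers, 19742 had a gene symbol in the RefSeq table of GRCm38.p6, and the 48 without one held 0.629% of the counts. Exon lengths came from the union of exons in GENCODE vM21. Where that union is longer than the transcripts expressed, the level per length and the family share of a gene come out too low. Genes were kept by edgeR's filterByExpr at a minimum count of 10 and a minimum total of 15. After TMM scaling, HFD was compared with NCD by the quasi-likelihood test of edgeR 4.0.16 (glmQLFit, glmQLFTest) in R 4.3.3 with no covariate and Benjamini-Hochberg adjustment over 15241 genes at a threshold of 0.05. The common biological coefficient of variation was 0.424, and 0.288 without NCD replicate 1. Within-library ratios took 0.5 added to each count and an exact permutation test over mice. Alternatives were other filters and scalings, DESeq2 1.42.0, limma-voom (limma 3.58.1), the replicate number as a block, and each mouse left out. Pairs of replicates differed by far more than counting noise. At 49575113 to 66360046 counts per library, the spread between mice limits the precision, and floors cover counting error only.

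On data simulated for 15063 genes in the comparison of 3 against 3, edgeR recovered 7.29% of 2-fold and 68.8% of 4-fold changes, with 1.35% of calls false. Named genes are all 10 genes of the set, those other sphingolipid genes past the threshold with all mice or without NCD replicate 1, and the sums of the marker lists. Outside this rule, *Kdsr*, *Cert1*, *Cers1* and *Cers3* were named after their values had been seen, and *Sphk2* as part of a ratio. The genes of the set and the lists were chosen with earlier results of these data known, and 1 gene of the pathway list is not reported here. Figures were drawn with matplotlib 3.10.9.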

Additional observations from a re-analysis of the deposited data

How the results depend on the processing

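Of 16 alternatives, 13 left 0 of the 10 genes past the threshold. The number was 0 to 2 with each mouse left out, 2 without NCD replicate 1 with median-of-ratios scaling and 3 without it with DESeq2. Of the other sphingolipid genes, 6 with all mice, 0 to 10 passed with each mouse left out, 15 with DESeq2, 17 with DESeq2 without NCD replicate 1, and 0 with the replicate block. The block also left 0 of the 10 genes. Same-numbered mice did not deviate together (correlations of -0.06, -0.05 and 0.01). These values show no pairing by number, and so few mice cannot exclude it. Over all genes 1139 passed (850 higher), 12 with the block, 3853 with DESeq2 (2100 higher), 3234 without NCD replicate 1 (1665 higher), and 2 to 7 without any other mouse. Total counts without the seminal vesicle genes gave 1145 higher and 284 lower.

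Signs turned with total counts alone for *Sptlc1* (0.18), *Cers2* (0.35) and *Degs1* (0.24). Without NCD replicate 1, with median-of-ratios scaling and with DESeq2, they turned for *Cers4* (-0.12 in both), *Cers5* (-0.088 and -0.085) and *Sgms2* (0.54 and 0.55). With each mouse left out in turn the log2 fold change ranged from -0.11 to 0.52 for *Cers4*, -0.078 to 0.41 for *Cers5*, -0.22 to 0.20 for *Sgms1* and -2.22 to 0.56 for *Sgms2*, and the log2 difference of the ratio of *Sgms2* to *Sgms1* from -1.60 to 0.78. For *Sgms2* the block gave -0.44. The cause was not tested.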
